A study of Homo sapiens with 8 samples.

Results

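Interferon-stimulated genes were followed in human breast cancer cells on 8 expression arrays. They are 43 listed genes, chosen by name with earlier results of these data known. Every probe annotated to them was taken from each array table, and DDX58 was counted as RIGI. Of 18852 genes on the Illumina table, 41 were members, with 59 probes, and of 19775 genes on the Affymetrix table, 42 were members, with 73 probe sets. Both platforms measured 41 of them. STAT2 on both platforms and USP18 on the Illumina platform were not analysed here. The Illumina arrays compared MDA-MB-231, described by the labels as poorly metastatic, with LM2, described as highly metastatic, 2 arrays each. The Affymetrix arrays compared LM2 labelled as control with LM2 over-expressing miR-126, also 2 arrays each. MDA-MB-231 is a triple-negative breast cancer line, and LM2 is a population derived from it by selection for growth in the lung of mice. All cells were grown in DMEM with serum, the labels name no interferon treatment, and they say neither how miR-126 was expressed nor what the control cells carried.

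Interferons are secreted signals of the antiviral response. Type I and type III interferons bind their receptors, activate receptor-bound kinases and bring STAT and IRF9 proteins together in a complex that binds the interferon-stimulated response element in the promoters of target genes. Type II interferon acts mainly through STAT dimers on another sequence, the gamma-activated site, and the 2 responses share many targets. Their products sense viral nucleic acid, block translation, degrade RNA, tag proteins with ISG15 or hinder entry and release of virus, and cancer cells can express part of this set without any virus.

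The letters A and B name the arrays of a group as the titles do, and no label ties them to separate cultures. The p-values then reflect only how these samples vary, and that variation may be technical. Every array of the Illumina table had a median intensity of 94.39, in arbitrary units with a background that was not fully subtracted, and the Affymetrix values are relative to the median probe set, at 1. Genes brighter than the median probe were tested, 12490 on the Illumina and 12923 on the Affymetrix table. Of the members, 39 and 37 were tested. RSAD2 and CMPK2 lay below this filter on both platforms, as did IFI44L, OAS1 and USP18 on the Affymetrix platform. The mesenchymal and basal markers VIM, CD44, EGFR and CAV1 and the keratins KRT8 and KRT18 passed the filter on both platforms. Of the 3 receptor genes that define triple-negative tumours, PGR lay below the filter on both platforms and ESR1 on the Illumina platform, while ESR1 passed on the Affymetrix arrays, at 1.38 to 1.65 times the median probe set. ERBB2 passed on both platforms, at 630 to 880 on the Illumina and 4.53 to 5.94 on the Affymetrix arrays. Of leukocyte markers, 5 of 9 measured on the Illumina and 4 of 8 on the Affymetrix arrays passed, while PTPRC, NKG7 and TYROBP lay below the filter on both. The number of arrays limits the precision.

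The promoters were read first, for the response element described above. RefSeq promoters of assembly GRCh38.p14, from 250 bases before to 50 bases after each annotated start, were found for 33 members. A core of the response element, GAAA followed after any 2 bases by GAAA on either strand, occurred in 22 of these 33 genes (66.7%), against 1195 of 27305 genes in the same table (4.38%). The gamma-activated site core TTCNNNGAA, which is its own reverse complement, occurred in 9 of the 33 (27.3%) and in 9.38% of all genes. The member promoters held 46 matches to the first core, 7 of which share a base with a match to the second.

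The windows of 30 bases printed here belong to the 8 members of smallest p in LM2, other than IFIT2, which was not matched in the promoter table, and to ISG15, which had an unadjusted p under 0.05 with miR-126. They show every match to the response element core or its reverse complement in capitals and are read 5′ to 3′ on the strand of the gene. In IFIT1, IFI27, ISG15 and BST2 the window holds 2 matches.
IFIT1: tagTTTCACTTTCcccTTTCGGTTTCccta
IFIT3: acagattctgTTTCAGTTTCccctcaagag
IFI27: cagTTTCGGTTTCctgGAAAATGAAAccta
ISG15: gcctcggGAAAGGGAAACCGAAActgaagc
BST2: tttctggGAAACTGAAACTGAAAacctaat
MX1: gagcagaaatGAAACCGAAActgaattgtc
GBP1: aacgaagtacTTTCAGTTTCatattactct
ISG20: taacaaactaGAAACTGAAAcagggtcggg

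In GRCh38.p14 these windows lie at chr10:89392504-89392533 for IFIT1, chr10:89332425-89332454 for IFIT3, chr14:94110625-94110654 for IFI27, chr1:1013377-1013406 for ISG15, chr21:41420559-41420588 for MX1 and chr15:88638937-88638966 for ISG20, all on the plus strand. On the minus strand they lie at chr19:17405738-17405767 for BST2 and chr1:89065316-89065345 for GBP1. The ISG15 and BST2 matches overlap each other, and the IFI27 window lies before both of its annotated starts. MX1 has 3 annotated starts, and its window begins just after the most upstream of them and lies before the other 2. IFIT3 has 2, and its window lies before the downstream one. The remaining windows lie before the start. A match is a description of the letters and does not show that a factor binds there.

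**Figure D1:**
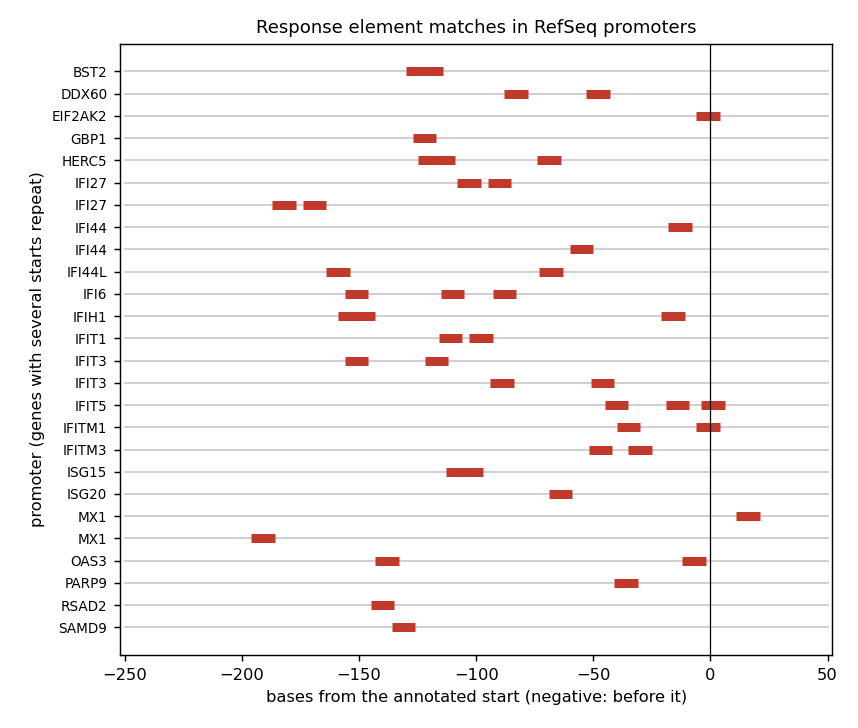
Position of each match to the response element core on either strand (red bars) in the RefSeq promoters of the members that hold one. The horizontal axis gives bases from the annotated start and the vertical axis the promoters, with genes of several starts repeated. The 46 matches belong to 22 genes, and most lie before the start.

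In LM2 against MDA-MB-231, the members split. The RNA-binding proteins IFIT1 and IFIT2, the GTPase MX1 and the small membrane protein IFI27 were lower, and the exonuclease ISG20 was higher. At an adjusted p under 0.05 (limma, two-sided, Benjamini-Hochberg over all tested genes) 4 of 39 members were lower, where 1.47% of all genes were lower, and 1 was higher, where 0.841% of all genes were higher. The other 34 members did not pass. Since the list was made with earlier results of these data known, these shares are a description. The member median was -0.17 log2, against -0.04 over all tested genes, and 26 members stood below 0, where 58.2% of all genes did. In bulk RNA, fewer cells expressing a gene and less RNA per cell cannot be told apart.

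The groups were fully apart for 22 of 39 members. In 17 of them both LM2 arrays lay below both MDA-MB-231 arrays, a pattern seen in 28.1% of all genes, and in 5 both lay above, as in 15.9% of all genes. At an unadjusted p under 0.05, 10 members were lower and 2 higher, against 9.82% and 4.61% of all genes. The absolute difference between group means averaged 0.472 log2 over the members and 0.229 log2 over all genes. Arrays of 1 group differed by 0.294 (MDA-MB-231) and 0.255 (LM2) over the members, and by 0.248 and 0.188 over all genes. A difference of single arrays carries more noise than one of means of 2 arrays, so these measures are unlike. Most members moved little, since 28 of 39 stood within 0.5 log2 of 0. The median of the members against the MDA-MB-231 mean was -0.091 on LM2 array A and -0.19 on array B. The filter uses the mean of all 4 arrays, so a member could pass it through its brighter group. With 1 array left out, where a lone array is assumed to vary like the others, the lower count moved with the array. It was 8 without MDA-MB-231 array B (3.18% of all genes), 3 without MDA-MB-231 array A (2.08%), 2 without LM2 array B and 1 without LM2 array A (0.32% each). ISG20 was the 1 member higher each time, against 2.35%, 0.761%, 0.608% and 0.368% of all genes.

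**Figure D2:**
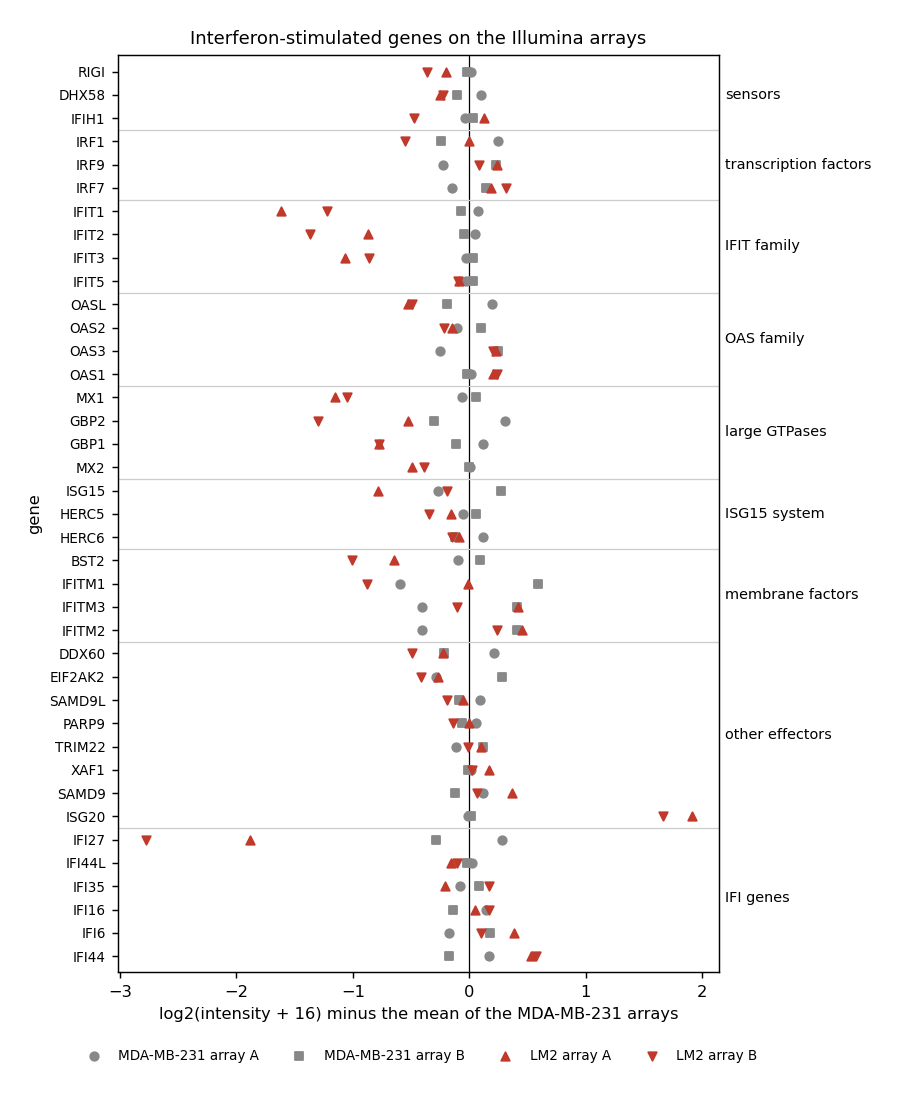
Each tested member on the 4 Illumina arrays, as log2(intensity + 16) minus the mean of the MDA-MB-231 arrays (horizontal axis), with members grouped by role (vertical axis). Grey marks are MDA-MB-231 and red marks are LM2. The red marks of IFIT1, IFIT2, IFIT3, MX1, GBP1, BST2 and IFI27 lie left of both grey marks, and those of ISG20 lie right of them.

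The IFIT proteins bind viral RNA that lacks the cap modification of the host and hold it back from translation. IFIT1 read 829 (array A) and 749 (array B) in MDA-MB-231 and 246 and 329 in LM2, in the same order. The groups lay far apart, and IFIT1 was 2.68-fold lower on the log2(value + 16) scale (log2 change -1.42, SE 0.22, 95% interval -1.90 to -0.94, limma adjusted p = 0.00686). Its second probe stood at -0.34. IFIT2, which restricts viruses of the nervous system in mice, read 1480 and 1382 in MDA-MB-231 and 774 and 543 in LM2. It was 2.18-fold lower (log2 change -1.12, SE 0.24, limma adjusted p = 0.0368), again without overlap. IFIT3, the partner that steadies IFIT1 on RNA, read 2204 and 2295 in MDA-MB-231 and 1063 and 1227 in LM2. Its groups were as clearly apart, but its change of -0.97 (SE 0.23) had an adjusted p of 0.0547 with limma. The 3 IFIT3 probes agreed, at -1.01, -0.97 and -0.95. IFIT5 was dim, at 94 to 104 on the 4 arrays, and stood at -0.09.

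The call for IFIT2 was lost without a filter on dim genes, when probes of a gene were averaged, with every probe fitted, under a variance prior without a trend, and without MDA-MB-231 array A or either LM2 array. That for IFIT1 was lost without LM2 array A. With LM2 array A left out, no IFIT gene was called.

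The large GTPases form rings or lattices around viral particles and vacuoles. All 4 stood lower in LM2 with no overlap between the groups, a pattern seen in 28.1% of all genes. Of them, 1 passed, where 1.47% of all genes were called lower. MX1, which blocks influenza virus replication, read 1392 and 1512 in MDA-MB-231 and 642 and 694 in LM2, a 2.15-fold lower level (log2 change -1.10, SE 0.22, limma adjusted p = 0.0266). Without either LM2 array its call was lost. GBP1, a guanylate-binding protein that responds most to type II interferon, read 424 and 357 in MDA-MB-231 and 221 and 221 in LM2, for a change of -0.77 (SE 0.19, limma adjusted p = 0.0719), and its second probe gave -0.79. GBP2 read 1710 and 1117 in MDA-MB-231 and 954 and 551 in LM2. The 2 arrays of each line differed widely for GBP2, the gap between the nearest arrays of the lines was small, and its change of -0.92 had an adjusted p of 0.168 with limma. MX2, a restriction factor of retroviruses, was dim at 154 to 155 in MDA-MB-231 and 106 to 114 in LM2, and stood at -0.44 (limma adjusted p = 0.118).

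Among the genes named IFI, IFI27 had the lowest change of all members. It encodes a small hydrophobic protein of internal membranes. It read 3186 and 2148 in MDA-MB-231 and 699 and 367 in LM2. Every LM2 value lay under every MDA-MB-231 value, although the arrays within each line also differed, and the level was 5.03-fold lower (log2 change -2.33, SE 0.32, 95% interval -3.02 to -1.64, limma adjusted p = 0.00348). IFI27 lost its call only under a variance prior without a trend (limma adjusted p = 0.0517), among the alternatives run. IFI44, which dampens the interferon response, went the other way, at 566 and 443 in MDA-MB-231 and 728 and 753 in LM2. Its groups did not overlap, and its change of 0.55 did not pass (limma adjusted p = 0.276). IFI6, IFI16, IFI35 and IFI44L lay between -0.13 and 0.24.

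ISG20, which degrades RNA from its 3′ end, was the one member called higher. It read 302 and 308 in MDA-MB-231 and 1190 and 1004 in LM2. The groups lay well apart and the level was 3.45-fold higher (log2 change 1.79, SE 0.21, 95% interval 1.32 to 2.25, limma adjusted p = 0.00168). This call held in each of the 14 alternatives run. The remaining effectors stood close to 0, from -0.36 for the helicase-like DDX60 and -0.34 for EIF2AK2, the kinase PKR that halts translation, to 0.21 for SAMD9. TRIM22, PARP9, XAF1 and SAMD9L lay between those values.

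**Figure D3:**
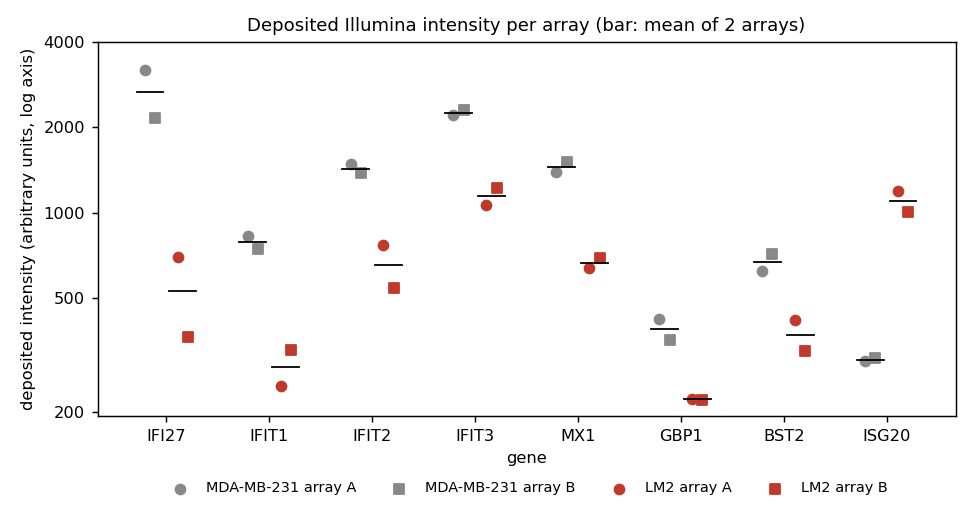
Deposited Illumina intensity (vertical log axis, arbitrary units) of 8 members of smallest p on each array, with circles for array A, squares for array B and a bar for the mean of 2 arrays. For each gene the grey MDA-MB-231 marks and the red LM2 marks do not overlap, from IFI27 (2148 to 3186 against 367 to 699) to ISG20 (302 to 308 against 1004 to 1190).

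The membrane factors act at the cell surface and in endosomes. BST2, or tetherin, which holds budding virus on the cell, read 626 and 716 in MDA-MB-231 and 421 and 326 in LM2. Its groups were apart, with a change of -0.83 (SE 0.22, limma adjusted p = 0.088). The IFITM proteins stop virus from fusing with endosomes, and their near-identical sequences mean that probes may share transcripts. IFITM1 read 697 and 1603 in MDA-MB-231 and 1049 and 567 in LM2, and the spread within each line exceeded the difference between them. IFITM2 and IFITM3 also overlapped, at 0.35 and 0.15.

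The sensors, the transcription factors, the OAS family and the ISG15 system had no call. The RNA sensors RIGI, IFIH1 and DHX58 stood at -0.28, -0.17 and -0.24. IRF1, IRF7 and IRF9, which drive transcription of the other members, stood at -0.28, 0.25 and 0.16. The OAS enzymes make the oligoadenylates that switch on RNase L, and OAS1, OAS2 and OAS3 stood at 0.22, -0.18 and 0.22, OAS1 with probes of both signs. OASL, which assists RIGI, read 191 and 142 in MDA-MB-231 and 110 and 112 in LM2, with no overlap (-0.51, limma adjusted p = 0.134). Its second probe stood at -0.10, and there the groups overlapped. ISG15, the ubiquitin-like modifier, read 567 and 835 in MDA-MB-231 and 394 and 600 in LM2. Its groups overlapped, at -0.49 (limma adjusted p = 0.461), and its ligases HERC5 and, in mice, HERC6 stood at -0.25 and -0.12.

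Several differences came from dim probes. In 9 members the dimmer line was under the upper quartile of the probes, and in 7 of these both lines were. Background left in the signal makes their differences too small. Of 12 members with several probes, 5 had probes of both signs. Below 0 stood 41 of 59 member probes, against 15542 of all 28098 probes with 1 symbol. With every probe fitted, 5 member probes passed, for IFI27, IFIT1, MX1, ISG20 and, through the dimmest of its 3 probes, at -1.01, IFIT3. In that fit 0.787% of all probes were lower and 0.456% higher.

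Members with and without a response element match were then set side by side. Of the 39 tested, 21 had a match, and 15 of these stood below 0, with a median change of -0.25 and a range from -2.33 for IFI27 to 1.79 for ISG20. The 9 without a match had a median of -0.02, with 5 below 0 and a range from -0.28 to 0.22. A match required exactly 2 bases between the GAAA repeats. Promoters of OAS1, RIGI, XAF1, IFI16 and IFI35, which are among these 9, hold GAAA repeats with a shorter gap. The split therefore follows this spelling of the core and does not separate genes with and without a response element. Another 9, IFIT2, OASL, OAS2, TRIM22, MX2, GBP2, IRF7, IFITM2 and DHX58, were not in the promoter table, and their median was -0.24. The member with the lowest change and the one with the highest both carry a match, as their printed windows show.

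The rest of the pathway was read from lists of receptors, regulators, sensors and interferons that are not members. Of 9 receptor and kinase genes, 1 passed, where 1.47% of all genes were called lower. IFNGR2, the second chain of the type II interferon receptor, read 3541 and 2836 in MDA-MB-231 and 1600 and 1461 in LM2, with no overlap (log2 change -1.04, SE 0.24, limma adjusted p = 0.0465). Its call was lost under quantile normalization, without a filter, with the mean of probes, with every probe, under a prior without a trend, and without MDA-MB-231 array A or either LM2 array. The type I receptor chain IFNAR2 stood at -0.61 (limma adjusted p = 0.105) and IFNAR1 at 0.10. IL10RB, a chain of the type III receptor, stood at -0.81 (limma adjusted p = 0.0902). The others, IFNGR1, IFNLR1, JAK1, TYK2 and JAK2, stood at -0.33, 0.03, 0.11, -0.02 and -0.01. The median of these 9 genes was -0.015, with 3 above and 6 below 0. None of 12 nucleic acid sensing genes and none of 7 tested regulators passed. All 9 interferon genes measured on the Illumina platform lay below the filter. The summed intensity of 9 leukocyte markers was 4753 and 4951 in MDA-MB-231 and 5152 and 3860 in LM2, with overlap. The largest part of each sum was CD68, at 2505, 2832, 2727 and 2177 in the same order. That of 5 endothelial markers was 447 and 471 against 515 and 485, and that of 5 fibroblast markers 512 and 497 against 472 and 472. These last 2 lists lay apart between the lines by small amounts, and their part in the member differences was not tested.

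The miR-126 comparison asked what the same genes did in LM2 cells over-expressing that microRNA. The labels do not name the arm, and the arrays did not measure the mature form, so its level was not checked here. The RefSeq mature sequences, with the seed (bases 2 to 8) in capitals, do not share a seed.
hsa-miR-126-3p: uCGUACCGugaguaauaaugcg
hsa-miR-126-5p: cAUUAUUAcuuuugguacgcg

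The 3p arm lies at chr9:136670653-136670674 and the 5p arm at chr9:136670616-136670636, both on the plus strand of GRCh38.p14.

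No member passed in miR-126 cells against control cells, and neither did any other gene (0 of 12923, 0% in either direction, limma). Of 37 tested members, 18 stood above and 19 below 0, where 45.4% of all genes stood below, with a median of -0.003 log2 against 0.02 over all genes. At an unadjusted p under 0.05, 2 members were higher, GBP1 and ISG15, and none was lower, against 3.37% and 4.44% of all genes. The groups were apart for 8 members upwards and 2 downwards, against 21.4% and 19% of all genes. The member changes ranged from -0.72 for IFITM1 to 0.69 for GBP1.

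GBP1 read 4.94 and 5.34 in the control arrays A and B and 8.81 and 7.53 in the miR-126 arrays, in units of the array median. Both miR-126 values lay above both controls, on the deposited scale as after normalization, with a change of 0.69 log2 (SE 0.12, 95% interval 0.39 to 0.99, limma adjusted p = 0.463). Its other probe sets gave 0.43, 0.39 and -0.02, the last from values of 0.265 to 0.283, under the lower quartile of the probe sets (0.423 to 0.427). ISG15 read 16.1 and 17.0 in control cells and 23.2 and 19.6 in miR-126 cells. It was likewise apart, at 0.37 (SE 0.10, limma adjusted p = 0.489), and its ligase HERC5 read 6.603 and 6.396 against 7.613 and 7.247 (0.22, limma adjusted p = 0.727). IFI27 read 1.89 and 2.06 in control cells and 0.917 and 1.61 in miR-126 cells, both below the controls (-0.66, SE 0.29, limma adjusted p = 0.65). ISG20 read 5.57 and 6.41 in control cells and 3.93 and 5.34 in miR-126 cells, also lower on both arrays as deposited. After normalization its miR-126 array B lay between the controls, and its change of -0.35 had an adjusted p of 0.748 with limma. IFIH1, the sensor MDA5, stood at 0.42 (limma adjusted p = 0.693). The other IFIH1 probe sets gave -0.08 and -0.11, but at 0.178 to 0.251 they also lay under the lower quartile, too dim to show a change. OASL stood at 0.24 (limma adjusted p = 0.698). Of 22 members with several probe sets, 10 had probe sets of both signs. In 12 tested members, IFIH1, IFI27 and TRIM22 among them, both groups were under the upper quartile of the probe sets.

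**Figure D4:**
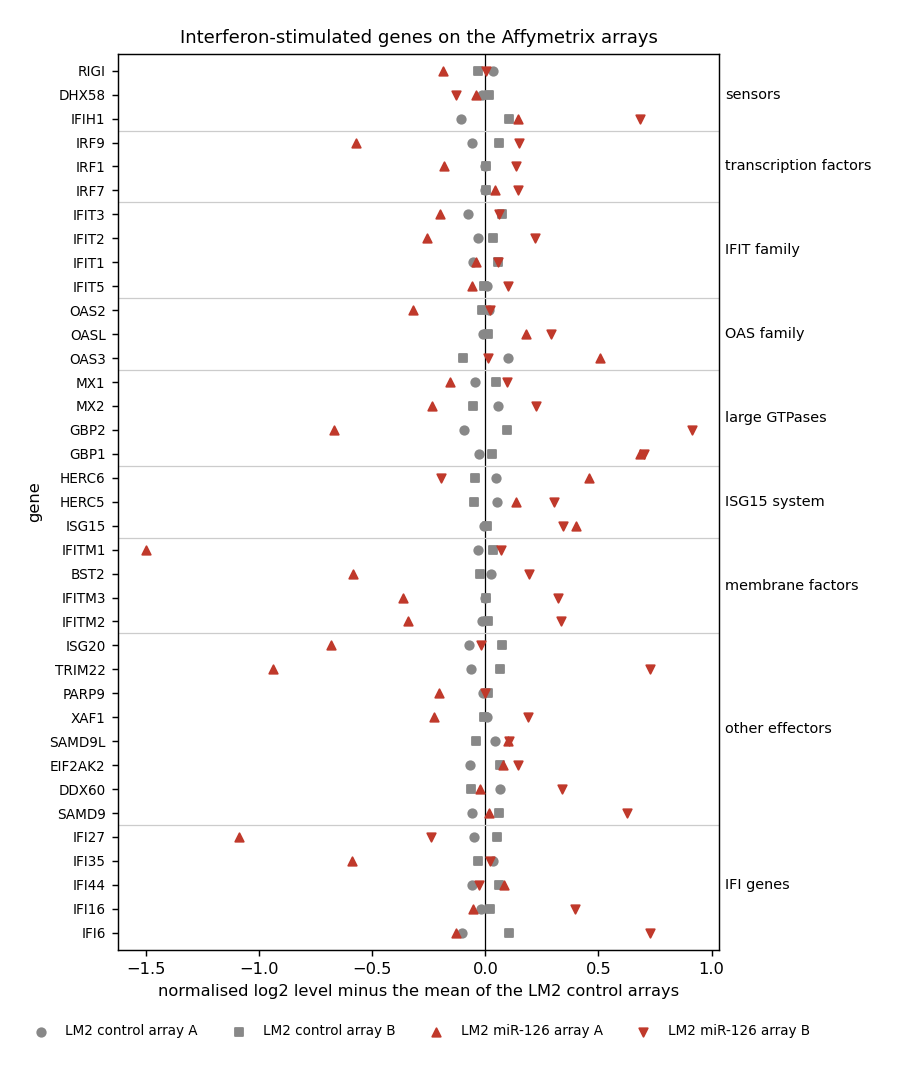
Each tested member on the 4 Affymetrix arrays, as normalised log2 level minus the mean of the LM2 control arrays (horizontal axis), grouped by role (vertical axis). Grey marks are control and red marks are miR-126 cells. The control marks lie close together, while the triangles of arrays A and B often lie on different sides of 0.

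The 2 miR-126 arrays differed from each other by more than their mean differed from the controls. Between arrays A and B the members differed by a mean of 0.477 log2, and between the group means by 0.187. Single arrays differ more than means of 2 arrays through noise alone, so these 2 measures are unlike. Over all genes they were 0.284 and 0.159, in the same order of size. The control arrays differed by 0.086 over the members. IFITM1 read 10.4 and 11.3 in control cells but 4.06 on miR-126 array A and 10.4 on array B. Its change of -0.72 (SE 0.51) therefore came from array A, and without that array it stood at 0.07. TRIM22, a ubiquitin ligase, read 1.502 and 1.653 in control cells, 0.816 on miR-126 array A and 2.44 on array B. GBP2 read 2.62 and 3.08 in control cells, 1.79 on array A and 4.83 on array B. For both genes 1 miR-126 array lay below and the other above the controls, and their means stood at -0.11 and 0.12.

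After quantile normalization, array A lay below array B in 32 of 37 members, where 52.9% of all genes did. The 2 arrays lay on opposite sides of the control mean for 24 members, against 47.1% of all genes. How far the members split depended on the scaling. On the deposited scale, chosen as an alternative after the values were seen, array A lay below array B in 23 members, against 36.3% of all genes, and the opposite-sides count was 15, against 51.5% of all genes. The member median stood at -0.16 on array A and 0.14 on array B after normalization, with all genes at 0.007 and 0.02. As deposited it stood at -0.086 and 0.015, with all genes at 0.055 and -0.072. Relative to the median of all genes, the members were thus low on array A and high on array B on both scales, while the side of the control mean was not stable.

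**Figure D5:**
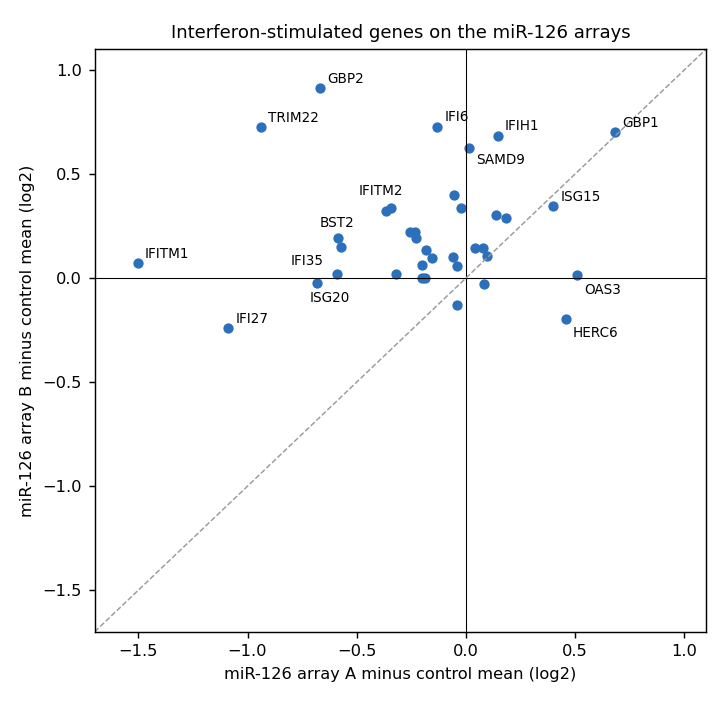
Normalised log2 difference from the control mean on miR-126 array A (horizontal axis) against array B (vertical axis) for the 37 tested members, with the dashed line marking equal values. In 32 members the point lies above the line, with TRIM22 and GBP2 far above it, and GBP1 and ISG15 lie at the upper right.

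With 1 miR-126 array at a time against both controls, which assumes that a lone array varies like the control arrays, the calls differed. On array A alone 13 members were lower and 4 higher at an adjusted p under 0.05 (limma), against 17.4% and 19.8% of all genes. On array B alone none was lower and 14 were higher, against 18.1% and 17.8% of all genes. The arrays lay on opposite sides of the control mean for 24 members, against 47.1% of all genes. Among them, GBP2, IFIT2, IFITM2, IFITM3 and TRIM22 stood below it on A and above it on B, also as deposited. GBP1 stood above the control mean on A and B, at 0.68 and 0.70, as did ISG15, at 0.40 and 0.34. The summed value of 8 leukocyte markers moved with this split, at 29.6 and 33.0 in control cells, 20.1 on miR-126 array A and 38.3 on array B. Most of each sum was CD74, the invariant chain of antigen presentation, at 22.7, 26.2, 14.3 and 29.6 in the same order, while PTPRC, NKG7, TYROBP and LYZ lay below the filter. Endothelial markers summed to 8.93 and 8.61 in control cells and 7.501 and 8.825 in miR-126 cells, with array A lowest. Fibroblast markers did not follow the split, at 4.90 and 4.72 in control cells and 5.05 and 5.49 in miR-126 cells, higher on both arrays. The part of these markers in the member values was not tested.

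By role, the means of the 3 tested genes of the ISG15 system stood above 0 in miR-126 cells, with no call, although HERC6 stood at 0.46 on array A and -0.20 on array B. The membrane factors split by array. All 4 lay below the control mean on array A, from -1.502 for IFITM1 to -0.34 for IFITM2, and all 4 above it on array B, from 0.07 for IFITM1 to 0.34 for IFITM2. As deposited, IFITM1 lay below the control mean on both arrays. The IFIT genes lay between -0.07 and 0.02 and the 3 tested OAS genes between -0.15 and 0.26. Of the pathway lists, none of 8 receptor and kinase genes, 7 regulators and 11 sensing genes passed, and the 8 interferon genes measured lay below the filter.

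The 2 comparisons share no array, and each was made within its own table. Of 37 members tested in both, 12 stood lower in LM2 and higher with miR-126, 13 lower in both, 6 higher in both and 6 higher in LM2 and lower with miR-126. The genes called lower in LM2 stood at 0.007 for IFIT1, -0.02 for IFIT2, -0.03 for MX1 and -0.66 for IFI27 in the miR-126 comparison. ISG20, the one called higher, stood at -0.35, and GBP1 stood at -0.77 in LM2 and 0.69 with miR-126. None of these miR-126 values passed, so the side-by-side signs are a description.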

How the data were processed

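Total RNA from 8 samples of established cell lines was measured on 2 array platforms. The authors deposited 1 table of linear intensity values per platform, and how they were scaled is not given in the sources used here. Illumina intensities as deposited share a median of 94.39, and the deposited Affymetrix intensities have a median of 1.

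Probes were named through the platform annotation, updated by Entrez identifiers (28059 of 28098 Illumina and 41037 of 41091 Affymetrix probes with 1 symbol). Probes with several genes (13 and 1801) or none (20692 and 11721) and 62 controls were left out, among them 2 Affymetrix probe sets shared by members with other genes. The brightest probe stood for a gene, and genes whose mean exceeded the median over probes were tested. Illumina values were used as log2(value + 16), which understates changes of dim genes. Affymetrix values were used as log2 after quantile normalization with no pseudocount, since the planned form, which assumed intensities far above 1, would have flattened most genes. Each table had its own limma fit (version 3.58.1, R 4.3.3, lmFit and trended eBayes). Tests were two-sided, and calls needed a Benjamini-Hochberg adjusted p under 0.05. An exact permutation of 2 against 2 arrays cannot go below 0.3333. The steps were tested on simulated data.

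The members and lists were chosen with earlier results of these data known. Genes were named where called or among the 8 of smallest p, members in full by role, and others of the pathway where called. The uncalled receptor and kinase genes on the Illumina platform were named besides. Members singled out for their array differences were chosen after their values were seen. Samples of different groups that share a letter were not treated as pairs, since the A minus B differences of the groups correlated at 0.128 and 0.060 over all genes. Sequences are from RefSeq (GRCh38.p14), and the plots were made in Python 3.11.15 with matplotlib 3.10.9.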

Additional observations from a re-analysis of the deposited data

How the results depend on the processing

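Alternatives covered normalization, pseudocount, filter, choice of probe, variance prior, a replicate block and each array left out. The 1 member called higher in LM2 kept that count in each. The 4 called lower became 2 under a variance prior without a trend and 9 with the replicate block, BST2, GBP1 and IFIT3 among them. With 1 array left out, the count ran from 1 (without LM2 array A) to 8 (without MDA-MB-231 array B), and was 2 without LM2 array B. The member median of -0.17 was -0.12 after quantile normalization, -0.26 with a filter at the 75th percentile, -0.24 with the mean of probes, and -0.193 to -0.0912 with an array left out. With miR-126, leaving out an array gave 0 to 13 members lower and 0 to 14 higher, and a median from -0.157 to 0.144. The opposite-sides count of 24 was 15 on the deposited scale. IFITM1 ranged from -1.502 to 0.070, reversed without miR-126 array A. Of 235 values of single genes under the alternatives, 198 kept their side of the threshold, 19 lost it, 17 gained it and 1 reversed. Over all genes, 105 higher and 184 lower in LM2 became 131 and 131 under quantile normalization, 66 and 118 with the mean of probes, 41 and 66 under the prior without a trend, and 209 and 411 with the replicate block, which gave 15 and 36 for miR-126, no member among them. The other alternatives without an array left out gave 0 for miR-126. The causes were not tested. Precision is limited by 2 arrays a group.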
